A study of Mus musculus with 6 samples.

Results

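Mcm7 and Mcm10, both of which act in DNA replication, were followed in liver RNA of adult C57BL/6J mice of wild type genotype, of which 3 were treated with GW4064 and 3 were vehicle controls. GW4064 is a man-made compound that activates FXR (farnesoid X receptor), the nuclear receptor that senses bile acids. GW4064 was dosed 3 times at 100 mg per kg, at 8 am, 6 pm and 8 am of the second day, the controls received vehicle on the same schedule, and all livers were collected 2 hours after the third dosing. As the study's methods state, food was withheld overnight from the second dose onwards, so both groups were fasted. RNA of whole liver from each mouse was hybridized to 1 Affymetrix array, giving 6 arrays, and the deposited values are log2 expression levels per probe set, a probe set being the group of array probes that reads 1 transcript or a few.

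The members were chosen by gene symbol. The table of changed probe sets deposited by the authors is the only source that pairs probe sets with genes, and each probe set with Mcm7 or Mcm10 as its only symbol was taken. This gave 2 genes with 1 probe set each, out of 87 genes with 99 probe sets named in this way and out of 22626 probe sets tested. By its header, that table was limited to a fold of 1.5 or more and a low p-value in a comparison of the same groups, so the difference between the groups had already chosen both genes. Not every listed probe set meets both limits on the log2 values used here. Their lower levels in GW4064 livers are therefore given as a description and are not independent evidence of a response. Any further probe set of either gene would carry no name here and is not analysed.

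Before a cell divides, the MCM proteins are loaded onto origins of replication as the core of the helicase that later unwinds the DNA. Mcm7 encodes 1 subunit of this helicase. Mcm10 is not a subunit of the ring, but encodes a protein that binds the assembled helicase, is needed for origins to fire and links the fork to the polymerase that starts new strands. In many cell types these genes are low in resting cells and are induced by E2F transcription factors when cells enter the cycle. Most hepatocytes of the adult liver are at rest, re-enter the cycle after part of the liver is lost, and in mice FXR takes part in this regrowth.

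The probe set of Mcm7 is 1438320_s_at, whose suffix means that its probes may also read transcripts of other genes, which makes its values less certain. The table places Mcm7 (Entrez gene 17220) at band G1 of chromosome 5, while a second column of the same table gives chromosome 16 for this probe set. RefSeq, on GRCm38.p6, has the gene on chromosome 5. The probe set of Mcm10 (Entrez gene 70024, chromosome 2, band A1) is 1433408_a_at, whose suffix marks several transcripts of 1 gene. In RefSeq, Mcm7 overlaps the protein-coding gene Ap4m1 and the miRNA genes Mir25, Mir93 and Mir106b, and lies between Cops6 and Taf6, while Mcm10 lies between Ucma and Optn and overlaps no other gene.

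The 3 miRNA genes inside Mcm7 are shown because an unspliced transcript that spans them also holds their precursors. 1 mature arm of each follows 5′ to 3′, with the seed (bases 2 to 8) in capitals and sequences from RefSeq on GRCm38.p6. They lie on the minus strand, like Mcm7, at chr5:138165787-138165807, chr5:138165574-138165596 and chr5:138165332-138165353, in the order printed.
miR-106b-5p: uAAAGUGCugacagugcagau
miR-93-5p: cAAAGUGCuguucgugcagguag
miR-25-3p: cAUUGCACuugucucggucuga
The first pair share the seed AAAGUGC, and miR-25-3p has another seed. The log2 levels given here are those of the Mcm7 probe set, and no value of the miRNAs is given.

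The promoters of both genes are shown because both probe sets had lower levels in GW4064 livers. Each window runs from 250 bases before to 50 bases after an annotated start, and the first transcribed base is counted as 1. Motifs were searched by their letters on both strands, and capitals mark the E2F motifs (TTTCCCGC, TTTCGCGC, TTTGCCGC or TTTGGCGC) and the CCAAT box (CCAAT), in the letters of the strand printed. The first promoter of Mcm7 is chr5:138171834-138172133 and that of Mcm10 is chr2:5012742-5013041, both on the minus strand of GRCm38.p6.
Mcm7: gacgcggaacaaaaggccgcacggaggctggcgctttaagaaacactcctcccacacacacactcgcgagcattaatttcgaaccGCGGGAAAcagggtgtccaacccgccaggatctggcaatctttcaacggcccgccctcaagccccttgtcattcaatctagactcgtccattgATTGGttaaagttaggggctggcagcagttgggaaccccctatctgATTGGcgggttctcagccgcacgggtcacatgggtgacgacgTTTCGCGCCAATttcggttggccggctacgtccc
Mcm10: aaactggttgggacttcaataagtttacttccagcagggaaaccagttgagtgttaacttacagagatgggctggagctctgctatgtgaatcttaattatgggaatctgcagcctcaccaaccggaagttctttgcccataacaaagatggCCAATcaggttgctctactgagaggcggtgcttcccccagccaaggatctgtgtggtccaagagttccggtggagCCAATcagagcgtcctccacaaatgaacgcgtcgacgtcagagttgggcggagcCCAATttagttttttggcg
The Mcm7 window holds 2 E2F motifs. TTTCCCGC lies on the opposite strand at bases -165 to -158 and TTTCGCGC at bases 17 to 24, where its last base is also the first base of a CCAAT box. Of 32851 promoter windows of the same length in RefSeq, 2.26% hold at least 1 of the 4 E2F motifs. The Mcm10 window holds 0 full matches to these letters. It ends in TTTGGCG, the start of the motif TTTGGCGC, and whether the next base completes that motif was not read. Each window holds 3 CCAAT boxes, as 3.37% of all windows hold at least 3 and 37.4% at least 1. RefSeq gives Mcm7 a second start, whose window (chr5:138171217-138171516) holds 0 E2F motifs and 1 CCAAT box. None of the 3 windows holds TTTGAA, the cell cycle homology region found in 17.9% of windows. None holds the exact letters of the FXR element IR1, an inverted repeat of AGGTCA with 1 base between, found in 0.00913%. So rare an exact match says little of FXR sites with other letters or outside these windows. These matches describe letters in the windows and were not tested for binding. Any link of a motif to the lower levels in GW4064 livers was not tested either.

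Both genes were read above the middle of the arrays in every liver. The median log2 level over all probe sets other than controls was between 5.871 and 5.893 on the 6 arrays. For Mcm7, the log2 level lay 1.82 above this median in vehicle livers (SD 0.20, n = 3) and 1.21 above it in GW4064 livers (SD 0.34, n = 3). It was at or above 71.4% to 74.8% of probe sets on the vehicle arrays and 61.2% to 69.8% on the GW4064 arrays. For Mcm10, the log2 level lay 4.50 above the median in vehicle livers (SD 0.21, n = 3) and 3.57 above it in GW4064 livers (SD 0.52, n = 3). It was at or above 92.9% to 94.4% of probe sets on the vehicle arrays and 84.8% to 91.3% on the GW4064 arrays, so that Mcm10 stayed among the brighter probe sets in treated livers as well. Levels of different probe sets depend on their probes, so the 2 genes are not ranked against each other.

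Mcm7, the helicase subunit, was 1.53-fold lower in GW4064 than in vehicle livers. Its log2 level was 7.83, 7.48 and 7.81 in vehicle replicates 1, 2 and 3, and 6.72, 7.14 and 7.40 in GW4064 replicates 1, 2 and 3. All 3 treated livers were below all 3 control livers, but the highest treated and the lowest control liver were only 0.076 apart, less than the range of 0.35 among the vehicle livers. The means were 7.70 ± 0.20 in vehicle and 7.09 ± 0.34 in GW4064 livers (SD, n = 3 each). The difference of GW4064 minus vehicle was -0.62 on the log2 scale (SE 0.18, 95% confidence interval -1.02 to -0.21), with a limma adjusted p of 0.505 over all probe sets.

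Mcm10, the helicase-binding factor, was 1.93-fold lower in GW4064 than in vehicle livers. Its log2 level was 10.57, 10.17 and 10.43 in vehicle replicates 1, 2 and 3, and 8.86, 9.62 and 9.84 in GW4064 replicates 1, 2 and 3. The groups did not overlap, the highest treated liver being 0.32 below the lowest control liver, and GW4064 replicate 1 stood below the other treated livers. The means were 10.39 ± 0.21 in vehicle and 9.44 ± 0.52 in GW4064 livers (SD, n = 3 each). The difference of GW4064 minus vehicle was -0.95 on the log2 scale (SE 0.24, 95% confidence interval -1.50 to -0.41), with a limma adjusted p of 0.484 over all probe sets.

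**Figure D1:**
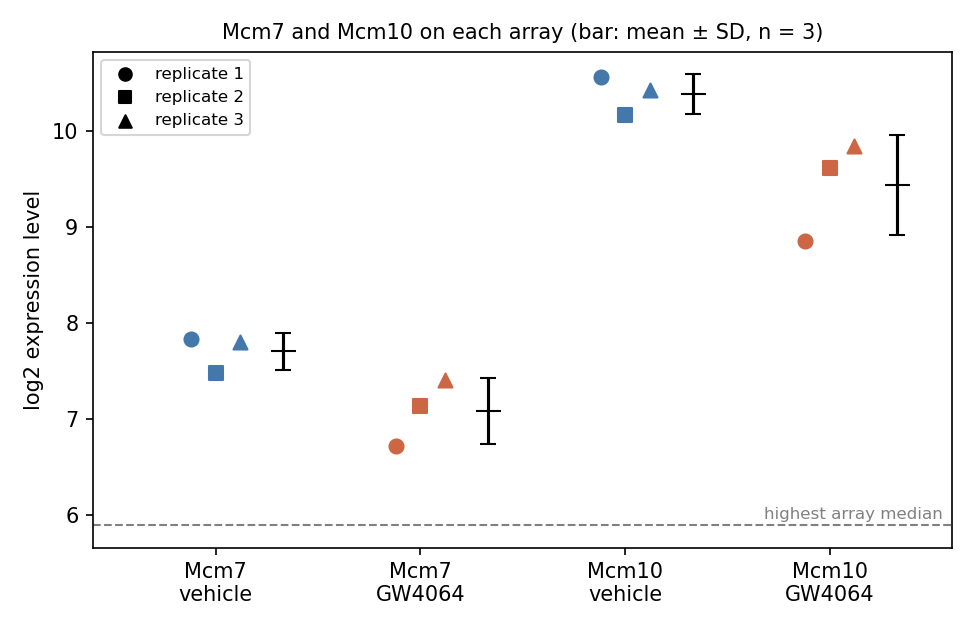
Log2 expression level (y axis) of Mcm7 and Mcm10 in vehicle and GW4064 livers (x axis), with 1 point per array, the point shape giving the replicate and the bar the mean ± SD of 3 livers. All 6 values of each gene lie above the dashed line, the highest array median (5.893), and all treated livers lie below all control livers of the same gene.

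By limma, 0 of the 2 genes had an adjusted p under 0.05, as had 0 of the 22626 probe sets (0%). Without adjustment, 1985 probe sets had a p under 0.05 by limma and 1427 by the methods' unpaired test, the latter also with 0 after adjustment. Both genes were at least 1.5-fold lower at an unadjusted p under 0.05 by limma, as were 140 of all probe sets (0.619%), and in both genes all GW4064 arrays were below all vehicle arrays, as in 1620 probe sets (7.16%). Nothing is read from these counts, since the table that names the genes used the same contrast. Among all probe sets ordered from the lowest difference upwards, Mcm10 was at position 59 and Mcm7 at position 182. An exact permutation test of 3 against 3 livers cannot give a two-sided p below 0.1.

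**Figure D2:**
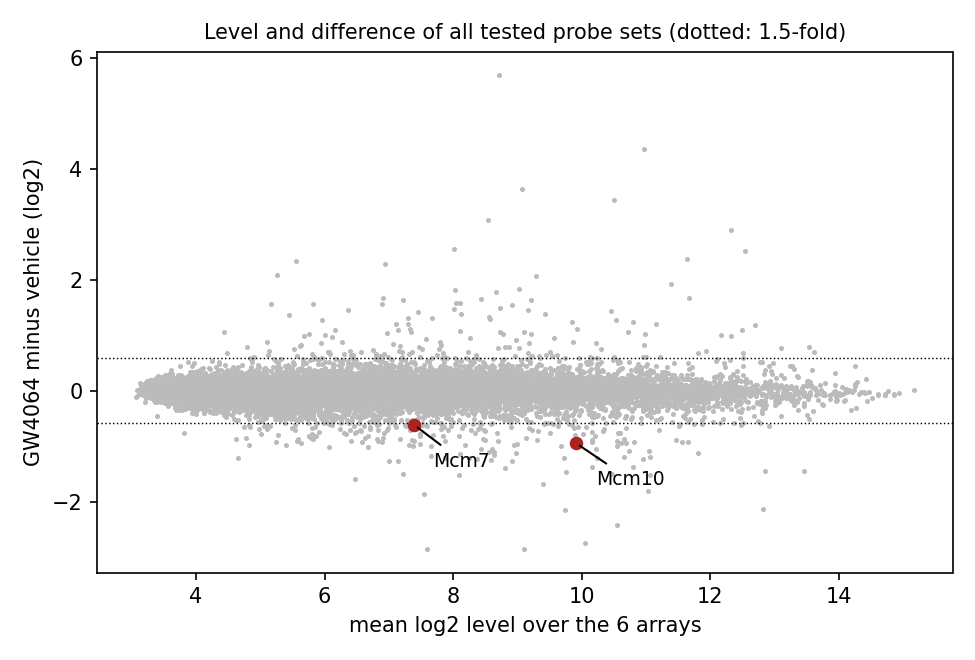
Difference of GW4064 minus vehicle on the log2 scale (y axis) against the mean log2 level over the 6 arrays (x axis) for the 22626 tested probe sets in grey, with Mcm7 and Mcm10 in red and dotted lines at 1.5-fold. Mcm7 at -0.62 lies just past the lower line and Mcm10 at -0.95 further below it.

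The spread among treated livers was wide for both genes. The SD of Mcm7 was at or above that of 95.3% of probe sets within the GW4064 group and 82.3% within the vehicle group. For Mcm10 these shares were 98.2% and 84.8%. The 6 livers stood in the same order for both genes. From highest to lowest, these were vehicle replicates 1, 3 and 2 and then GW4064 replicates 3, 2 and 1. This order was found in 84 of all probe sets (0.371%), all of them among the 1620 with all treated below all control livers. The selection that named both genes favoured such a separation. GW4064 replicate 1 was the liver farthest from the controls, at -0.98 relative to the vehicle mean for Mcm7 and -1.53 for Mcm10. GW4064 replicate 3 was the nearest, at -0.30 and -0.55.

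The same order of the treated livers was common in these arrays. Over all probe sets, pairs of arrays correlated at 0.9896 to 0.9947 within GW4064 and 0.9944 to 0.995 within vehicle. Between the groups the range was 0.9865 to 0.9954, so some treated and control arrays were as alike as 2 controls. Of the 1620 probe sets with all treated below all control livers, 531 (32.8%) had GW4064 replicate 1 lowest, then 2, then 3. The distance from vehicle, in either direction, was also largest in replicate 1 and smallest in replicate 3 for a pair of FXR-responsive genes, chosen after their values were seen. Cyp8b1, the hydroxylase of cholic acid synthesis that FXR represses, was at log2 levels of 11.49 to 12.10 in vehicle livers and at 8.00, 9.67 and 10.33 in GW4064 replicates 1, 2 and 3. Nr0b2, which encodes the FXR-induced repressor SHP, was at 7.54 to 8.02 in vehicle livers and at 10.58, 9.21 and 8.87 in the same treated livers. Cyp8b1 was thus lower and Nr0b2 higher in treated livers, each with a limma adjusted p of 0.433. Both genes were named through the same selection on these arrays. The order of treated livers was not counted among probe sets higher in GW4064, so Nr0b2 has no such share beside it. Any link of their differences to those of Mcm7 and Mcm10 was not tested. The control probe sets for Gapdh lay at 12.97 to 13.15 and those for the 3′ part of beta-actin at 13.53 to 13.81 on the 6 arrays, with the groups overlapping.

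Leaving out single livers changed the size of both differences. Without GW4064 replicate 1, Mcm7 was 1.35-fold and Mcm10 1.58-fold lower, so that Mcm7 no longer reached 1.5-fold. Mcm7 was also under 1.5-fold without vehicle replicate 1 (1.47-fold) and without vehicle replicate 3 (1.48-fold). Without GW4064 replicate 3, Mcm7 was 1.71-fold and Mcm10 2.22-fold lower, with limma adjusted p-values of 0.132 and 0.116. By the methods' unpaired test, which takes the spread from each probe set alone, the 95% confidence interval of Mcm7 was -1.25 to 0.015 and that of Mcm10 was -1.84 to -0.058.

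**Figure D3:**
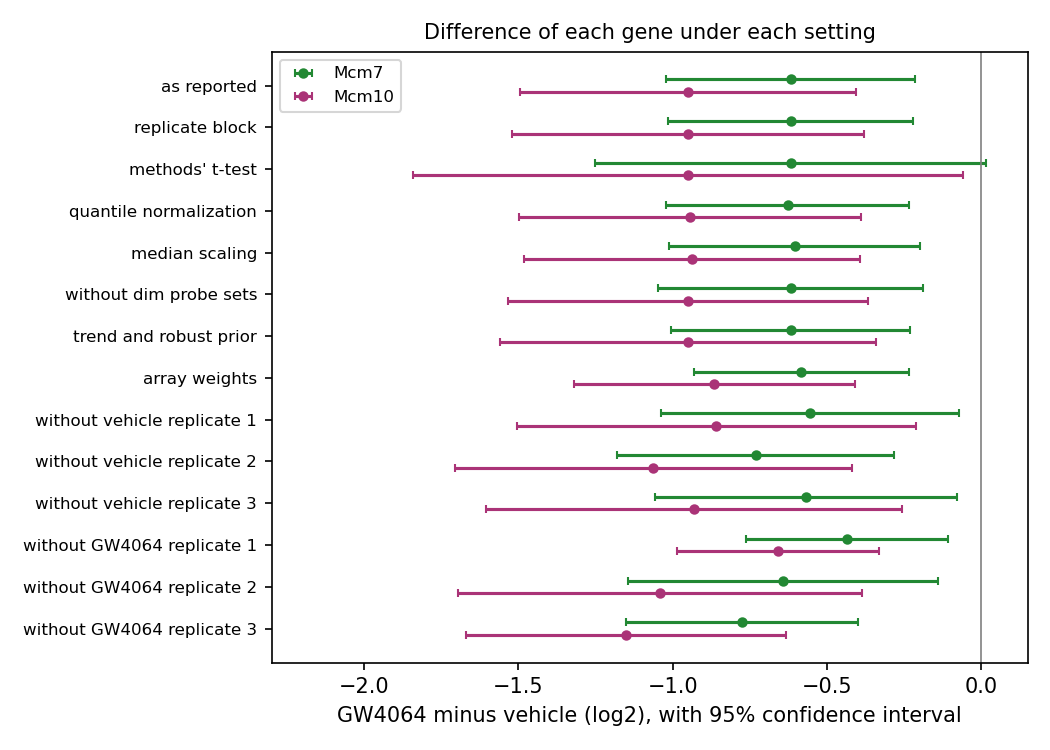
Log2 difference between GW4064 and vehicle livers with its 95% confidence interval (x axis) for Mcm7 and Mcm10 under each setting (y axis). All points lie below 0, and only the interval of Mcm7 by the methods' unpaired test reaches past it, to 0.015.

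Other genes of replication could not be set beside these. Of 82 genes in 4 lists (the MCM family, origin licensing and firing, the replication fork with nucleotide supply, and the cell cycle with its regulators), only Mcm7 and Mcm10 had a named probe set. Within the MCM family these were 2 of 10 genes, both lower and 0 past the adjusted threshold. The 20 genes of licensing and firing, among them the Orc genes, Cdc6, Cdt1 and Cdc45, had 0 named probe sets, as had the 26 genes of the fork and the 26 of the cell cycle. Since only probe sets listed as changed carry a name, this says nothing of their levels. Likewise 0 of 38 markers of 9 cell types had a named probe set, including 6 of hepatocytes and 5 of proliferating cells, so neither the tissue label nor the share of cycling cells was checked through them. In RNA of whole liver, fewer cells that express a gene and less of its RNA per cell cannot be told apart.

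Named genes with profiles like those of the 2 replication genes are given without a statement on shared function. No other gene of the 4 replication and cell cycle lists had a named probe set, so none could appear among them. Likeness was the root mean square difference on the log2 scale between profiles over the 6 arrays, each profile counted from its own vehicle mean, over 86 other named genes. Near to Mcm7 were the ETS factor gene Elk3 (0.11), the thiamine transporter gene Slc19a2 (0.11), the basement membrane collagen gene Col4a1 (0.13) and Pgd, an enzyme of the pentose phosphate pathway (0.13). Their differences of GW4064 minus vehicle lay between -0.57 and -0.70 on the log2 scale. Nearest to Mcm10 were Ddc, which encodes the aromatic amino acid decarboxylase (0.19), Elk3 (0.22), the laminin chain gene Lama3 (0.22), the small heat shock protein gene Hspb1 (0.23) and Fam89a (0.24), with differences between -0.70 and -1.13. Elk3, Lama3 and Fam89a were dim, with mean log2 levels over the 6 arrays of 4.98, 5.40 and 5.63, and are less certain. Mcm7 was the seventh nearest to Mcm10 and Mcm10 stood at position 25 for Mcm7, with a root mean square difference of 0.26. This measure counts the size of a difference as well as its shape, and the difference was -0.95 for Mcm10 and -0.62 for Mcm7. Since all 87 named genes were selected on these arrays, this likeness is a description.

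**Figure D4:**
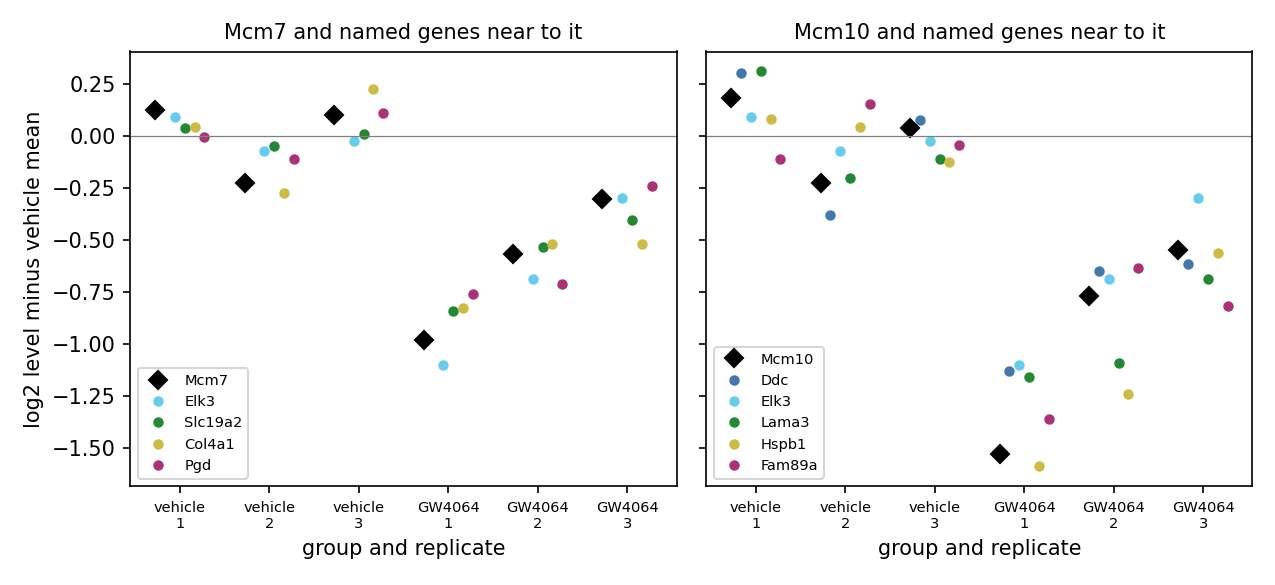
Log2 level minus the vehicle mean of the same gene (y axis) on each of the 6 arrays (x axis, group and replicate) for Mcm7 and Mcm10 (black diamonds) and named genes near to each (coloured points). Mcm7 and Mcm10 are lowest in GW4064 replicate 1, at -0.98 and -1.53.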

How the data were processed

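Gene expression was measured in livers of 6 mice, 3 per group, with groups and replicate numbers taken from the sample titles. The deposited values are log2 expression levels that the authors made with Affymetrix Power Tools. How probes were summarised is not given in the sources used here. Since array medians were nearly equal, values were used as deposited. Probe set identifiers and the authors' table header are those of the Mouse430A_2 design, although labels and methods give Mouse Gene 1.0 ST. That table also holds the authors' own fold changes and directions, which were not used. All 99 probe sets with 1 symbol matched RefSeq (GRCm38.p6) by Entrez identifier. After setting aside 64 control probe sets, 22626 were fitted with limma 3.58.1 (R 4.3.3; functions lmFit and eBayes, group as the only term, two-sided, Benjamini-Hochberg adjustment over all). A probe set was called at an adjusted p under 0.05. The fit was run on simulated data with differences of known size, and the only condition set was that their median size was recovered. That check says nothing of the members. The named genes are the members, list genes with a named probe set, and the 5 nearest named genes of each member (1 of them is not reported here), a gene with several probe sets being given by the brightest. Alternatives were a replicate block, the methods' unpaired test, quantile normalization, median scaling, leaving out dim probe sets (mean under 5.88), another prior, array weights, and leaving out each array. Members and lists were chosen with earlier results of these data known. With 3 arrays a group, their number limits the precision, and no batch is given in the labels.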

Additional observations from a re-analysis of the deposited data

How the results depend on the processing

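Mcm7 and Mcm10 kept a lower level in GW4064 livers in all 13 alternative fits of each, and 0 of these passed the adjusted threshold. This was largely set in advance, since neither gene overlapped between the groups. With all 6 arrays kept, the difference of GW4064 minus vehicle was -0.63 to -0.58 for Mcm7 and -0.95 to -0.87 for Mcm10, with adjusted p-values of 0.369 to 0.745 and 0.346 to 0.745. Leaving out 1 array gave -0.78 to -0.44 for Mcm7 and -1.15 to -0.66 for Mcm10, with adjusted p-values of 0.132 to 0.84 and 0.116 to 0.779. The levels above the array median moved by less than 1 SD under each scaling and omission. No other probe set carried either symbol, so that alternative gave no value. With the replicate block, the limma adjusted p was 0.403 for Mcm7 and 0.380 for Mcm10, and the counts were 0 at the adjusted threshold, 157 lower and 147 higher at 1.5-fold and an unadjusted p under 0.05. Deviations of same-numbered livers correlated at -0.00194, 0.053 and -0.034 over probe sets, so the numbers were not taken as pairs. Over all probe sets, 0 passed the adjusted threshold in any alternative with 6 arrays and 0 to 70 with 1 array left out, the highest without GW4064 replicate 3. At 1.5-fold and an unadjusted p under 0.05, 140 were lower and 143 higher, against 38 and 59 by the methods' unpaired test and 68 to 326 and 90 to 247 with 1 array left out, the omission of GW4064 replicate 1 giving the lowest counts and that of replicate 3 the highest. The cause was not tested. Brightness over background is not known for any probe set, as no detection call was used.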

Other observations

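Ung, which encodes the uracil DNA glycosylase that removes uracil from DNA, partly at replication forks, was chosen after its values were seen, as a named gene of DNA maintenance. Its log2 level was 6.25, 6.03 and 6.02 in vehicle replicates 1, 2 and 3, and 6.83, 6.67 and 6.43 in GW4064 replicates 1, 2 and 3. All treated livers were above all control livers, as in 1517 of 22626 probe sets, and opposite to Mcm7 and Mcm10. The difference was 0.54 on the log2 scale (SE 0.12) or 1.46-fold, with a limma adjusted p of 0.463. Ung was named by the same table, which was selected on these arrays.

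The chromosome columns of the authors' table differed for 2 of 94 named probe sets that have both, those of Mcm7 and Lgals7, and in both the band gave the chromosome that RefSeq gives. For Mcm7 the other column gave chromosome 16, where RefSeq places Mcm4 of the 10 MCM family genes. The family is spread over chromosomes 1, 2, 5, 6, 7, 8, 10 and 16, so a chromosome shared with 1 of them says little. Which transcripts this probe set detects was not tested.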
